A study of Arabidopsis thaliana with 18 samples.

Results

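The genes described here are the SAUR family of Arabidopsis thaliana (SMALL AUXIN UP RNA), short genes named for transcripts that accumulate within minutes of auxin treatment. A gene was taken as a member where its symbol in the deposited gene tables starts with SAUR or its description names the SAUR-like auxin-responsive family, and 78 of the 24951 genes listed in any library met this rule. The description chose 77 members and the symbol 16. The member chosen by its symbol alone, AT5G01830, is described in the tables as an ARM repeat protein and has a coding sequence of 2025 bp, so it is called by its locus here, and the name SAUR21 is kept for AT5G18030. Levels are given in FPKM, reads scaled to gene length and library depth, and the 52 members with a mean of 0.5 FPKM or more over the 18 libraries are described singly. SAUR71 lay just inside that limit with a mean of 0.507 FPKM and SAUR10 just outside it with 0.491 FPKM.

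All libraries were made from polyA RNA of wild type seedlings, for which the labels name no ecotype. The seedlings had germinated on MS medium and spent 7 days in darkness, which leaves them etiolated, with long hypocotyls and closed pale cotyledons. They were then moved to light for 0, 1, 2, 4, 8 or 12 h, with 3 libraries at each time, and the 0 h libraries are the dark controls. No group stayed in the dark for the added hours, so hours of light cannot be told apart from seedling age and time of day. The labels do not say whether replicates came from separate cultures, and p-values measure only the spread between these libraries. In RNA of whole seedlings, fewer cells of a type and less RNA per cell cannot be told apart.

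Total expected counts lay between 20072467 and 22760811 per library. Replicate 3 stood apart from the other replicates at 0 h and at 2 h, with log2 correlations of 0.944 to 0.95 against 0.983 and 0.986 between the other pair. The summed FPKM of 3 seed storage genes was 10698 in dark replicate 3 against 1596 and 615 in dark replicates 1 and 2. It was 3862 to 7471 at 1 h, 1856 to 7113 at 2 h and 491 to 2212 at 4 h, then 8.07 to 36.6 at 8 h and 1.17 to 5.12 at 12 h. The sum was thus above that of dark replicates 1 and 2 in every 1 h and 2 h library. The 6 root markers summed to 45.7 FPKM in dark replicate 3 and to 149 and 166 in the other dark libraries, nearly all of it CASP1, with SHV2, EXPA7 and PRP3 at or near 0 in the dark and RHD6 at 0.22, 0.25 and 1.65 FPKM. At 2 h SHV2 had 1.22, 0.76 and 0.56 FPKM, EXPA7 0.96, 1.04 and 0.72, and PRP3 4.36, 3.8 and 2. None of these genes exceeded 0.41 FPKM at any other time. EIR1 had 9.52, 7.2 and 5.29 FPKM at 2 h and 3.93, 4.18 and 4.62 in the dark. The labels give whole seedlings as the tissue, while the series title names the leaf. The 3 shoot epidermis markers summed to 424 to 948 FPKM at 2 h and to 212 to 313 FPKM in the dark. The 4 markers of the stomatal lineage and the 2 of the shoot meristem summed to at most 17.6 and 8.87 FPKM in any library, and WUS did not exceed 0.07 FPKM. The part of tissue makeup in the results was not tested.

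SAUR proteins of the SAUR19 type bind and inhibit phosphatases of the PP2C clade D at the plasma membrane. Those phosphatases switch off the plasma membrane proton pumps, so a cell rich in such SAUR proteins acidifies its wall and expands. In dark-grown seedlings the hypocotyl elongates fast and the cotyledons stay small, and light reverses both, with SAUR genes among the targets of the growth-promoting PIF factors and of auxin. Many members lie in tandem arrays, and most have no intron. An array here is a run of members on a chromosome with at most 20000 bases between neighbours, with no minimum of similarity. The median identity of coding bases within an array ran from 40.4% (SAUR51 and SAUR52) to 91.2% (SAUR19 to SAUR24). In the RefSeq annotation 75 of the 78 coding sequences were a single exon, their median length was 367.5 bp, and 22 members had another member with at least 80% identical coding bases. Members lay on all 5 chromosomes, with 20 on chromosome 1, 11 on 2, 14 on 3, 18 on 4 and 15 on 5.

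A large block of SAUR transcripts was lower after 1 h of light than in the dark, and a smaller group was higher, mostly at later times. At 1 h, 22 of the 52 members were lower than in the dark and 2 were higher, where 2.09% of all 20569 tested genes were lower and 3.66% higher (5.75% in either direction). The limit of 0.5 FPKM that chose the 52 includes the dark libraries, so members high mainly in the dark can pass it. Over all 61 tested members, without that limit, 26 were lower at 1 h and 2 higher. A gene was called where the edgeR quasi-likelihood test gave a Benjamini-Hochberg adjusted p under 0.05 and the log2 fold change was at least 1 in size. The median log2 fold change of the 52 was -1.30 and that of all tested genes -0.06. At 2 h, 11 members were lower and 5 higher, against 6.46% and 13.9% of all genes (20.4% in either direction), and the median was -0.46 against 0.10 for all genes. Over all tested members, 13 were lower at 2 h, and 20 were without dark replicate 3.

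More members were lower at the later times than at 2 h. At 4 h, 24 of the 52 members were lower and 5 higher, against 7.51% and 11% of all genes (18.5% in either direction). At 8 h the counts were 23 lower and 6 higher, with 9% and 13.6% of all genes (22.6% in either direction). At 12 h, 21 members were lower and 7 higher, with 9.19% and 13.1% of all genes (22.3% in either direction). Over all 61 tested members, 29, 27 and 25 were lower at 4, 8 and 12 h, and 5, 6 and 7 higher. The median log2 fold change of the 52 at 4, 8 and 12 h was -1.16, -0.71 and -0.70, where that of all tested genes was -0.0049, 0.0058 and -0.01. Of the 52 members, 28 were lower at 1 or more times, 9 were higher, 15 were never called and none was called in both directions. The shares of all tested genes lower or higher at 1 or more times were not counted. They are at least 9.19% and 13.9%, the largest shares at a single time. In the F test over the 6 groups, 45 of the 52 had an adjusted p under 0.05 (edgeR), against 75% of all genes tested.

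**Figure D1:**
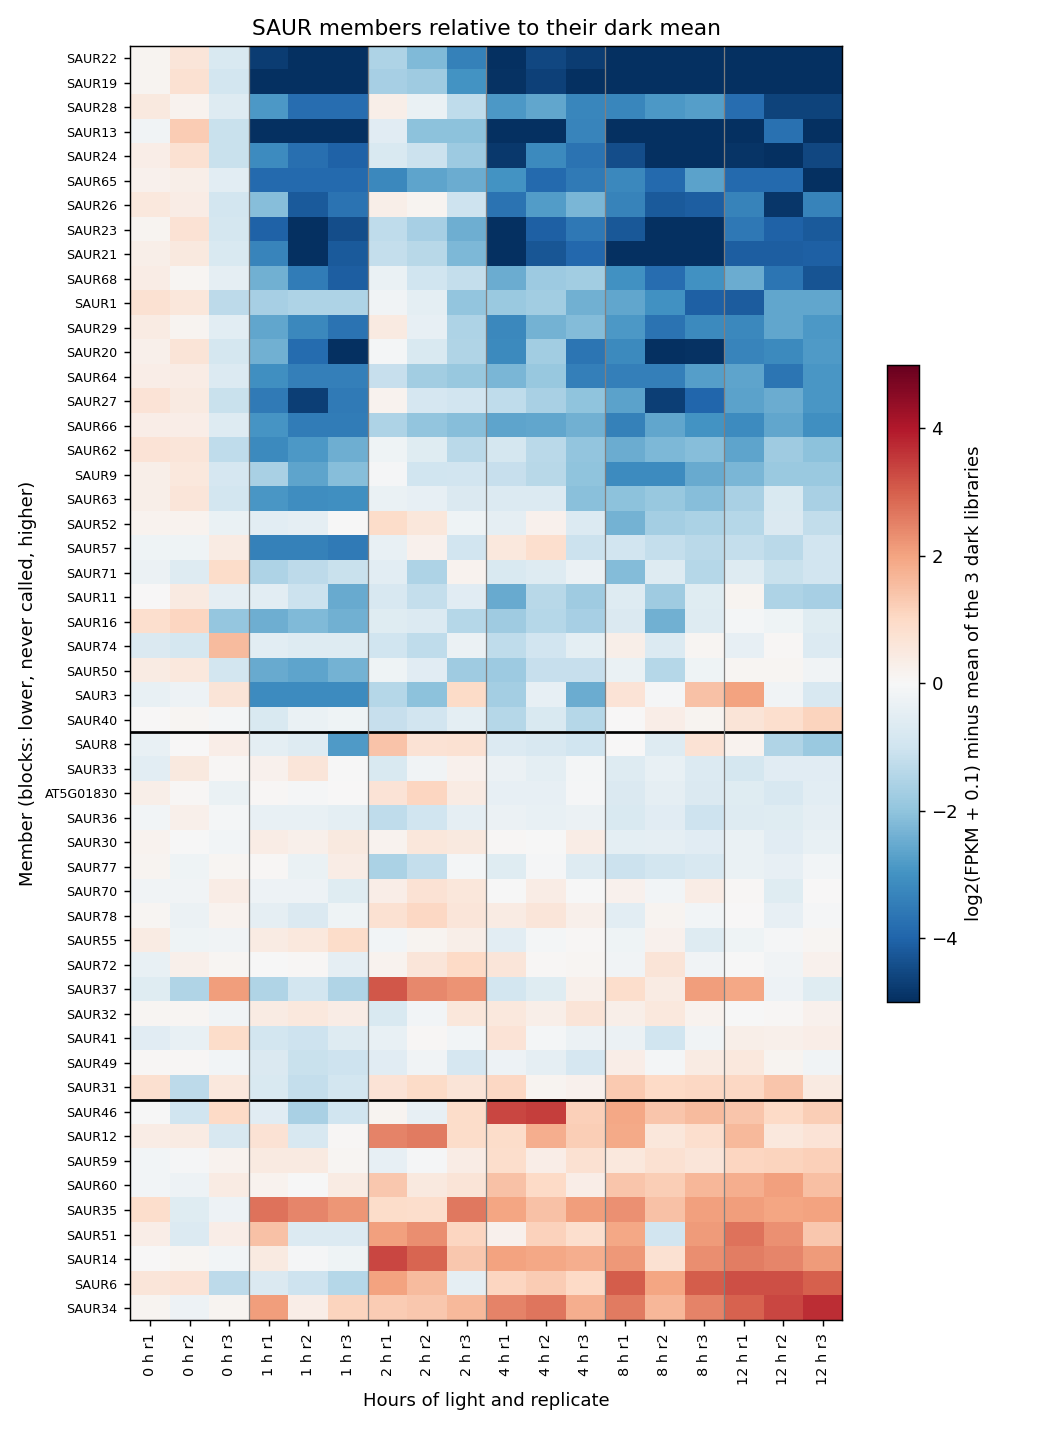
Level of each of the 52 members in each of the 18 libraries, as log2(FPKM + 0.1) minus the mean of the 3 dark libraries; rows are in 3 blocks (28 lower, 15 never called, 9 higher), ordered within a block by the log2 fold change at 12 h, and colours are cut off at 5 in either direction. The 1 h columns of the lower block are dark blue, the 2 h columns paler, and dark replicate 3 is the lowest of the dark libraries in 24 of its 28 rows.

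**Figure D2:**
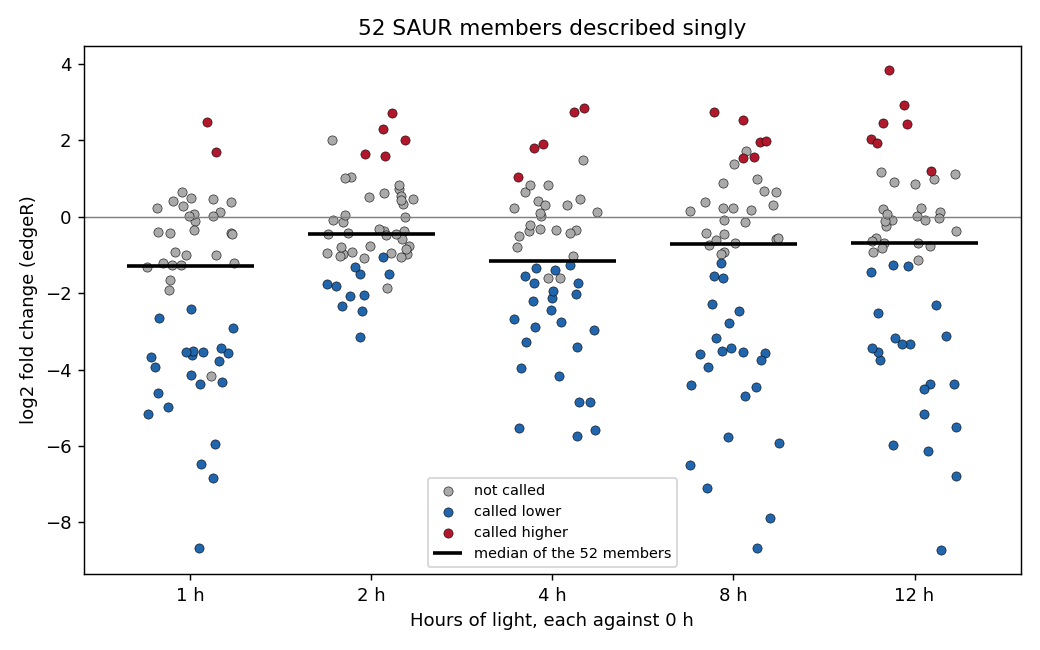
Log2 fold change (edgeR) of each of the 52 members at 5 times of light against the dark, with called members in colour and a bar at the median. The median is lowest at 1 h (-1.30) and nearest 0 at 2 h (-0.46). Fitted values of members at 0 in a group (the lowest points at 1 h and 8 h) depend on the prior count.

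The makeup of the family's summed level changed more than the sum itself. Of all summed FPKM, 0.0847% ± 0.0132 belonged to the members in the dark (SD, n = 3). Their share was 0.0673% ± 0.00086 after 1 h, 0.0821% ± 0.00539 after 2 h and 0.0728% ± 0.00152 after 12 h. The summed level of the 28 lower members was 163, 196 and 86.2 FPKM in the dark replicates 1 to 3, then 20.1, 14.6 and 14.7 at 1 h, 84.7, 63.1 and 42.4 at 2 h and 44.9, 41.6 and 33.9 at 12 h. The 9 higher members summed to 39.3, 38.7 and 41.7 FPKM in the dark and to 131, 131 and 124 at 12 h. The 15 members that were never called made up 62.2% of the family's summed level in darkness and 83.5% after 1 h of light. These groups were formed from the calls, so their sums are descriptions.

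Of the 28 lower members, 22 lay in tandem arrays, and the chromosome 5 array SAUR19 to SAUR24 had the largest drop in summed level of the 6 arrays plotted. This array spans chr5:5962773-5984308 (6 genes). Its summed level was 64.2, 88.4 and 29.65 FPKM in the dark, 4.32, 1.52 and 1.59 at 1 h, 27.5, 20.5 and 10.9 at 2 h, 1.67, 5.04 and 2.73 at 4 h, 1.79, 0.38 and 0.72 at 8 h, and 2.04, 2.01 and 2.18 at 12 h. Dark libraries were all above every library at any other time, with dark replicate 3 close to the highest 2 h library. All 6 genes were lower at 1, 4, 8 and 12 h and 5 at 2 h, when all 6 were higher than at 1 h. Their coding sequences are 87.7% to 95.2% identical, so reads can be split between copies, and 4 of the 6 (SAUR19, SAUR21, SAUR23 and SAUR24) had mostly fractional counts.

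The closest pair of the array is printed to show how little separates the copies whose counts are reported one by one. Both are whole coding sequences of 273 bases from RefSeq TAIR10.1, read 5′ to 3′ on the coding strand. SAUR19 is at chr5:5963033-5963305 on the minus strand and SAUR24 at chr5:5983840-5984112 on the plus strand, and capitals mark the 13 bases at which they differ.
SAUR19: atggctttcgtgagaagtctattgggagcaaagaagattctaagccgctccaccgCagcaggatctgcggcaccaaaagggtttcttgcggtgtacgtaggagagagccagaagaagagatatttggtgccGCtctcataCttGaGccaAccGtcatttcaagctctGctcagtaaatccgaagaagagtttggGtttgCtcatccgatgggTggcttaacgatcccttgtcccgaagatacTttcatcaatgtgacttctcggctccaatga
SAUR24: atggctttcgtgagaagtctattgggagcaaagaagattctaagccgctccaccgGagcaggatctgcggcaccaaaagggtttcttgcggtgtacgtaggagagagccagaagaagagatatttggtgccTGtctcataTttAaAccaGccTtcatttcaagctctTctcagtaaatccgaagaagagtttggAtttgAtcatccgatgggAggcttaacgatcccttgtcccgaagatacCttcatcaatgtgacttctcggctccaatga

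SAUR19 (AT5G18010, chr5:5962773-5963405, minus strand), the founding member of the PP2C-inhibiting type, had 11.35, 17.8 and 5.53 FPKM in the dark. It had 0.2, 0.09 and 0.1 FPKM at 1 h, 3.24, 2.96 and 1.23 at 2 h, 0.24, 0.31 and 0.22 at 4 h, 0.1, 0.07 and 0.12 at 8 h, and 0.16, 0.13 and 0 at 12 h. Every dark library was above every light library. Relative to the dark, its log2 fold change was -6.47 ± 0.65 at 1 h (SE, n = 3, edgeR adjusted p = 5.1e-06) and -6.78 ± 0.67 at 12 h (edgeR adjusted p = 9.0e-07).

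SAUR24 (AT5G18080, chr5:5983683-5984308, plus strand) had 12.8, 17.2 and 4.57 FPKM in the dark. The light libraries held 1.06, 0.64 and 0.51 FPKM at 1 h, 5.82, 4.66 and 2.76 at 2 h, 0.26, 1.03 and 0.68 at 4 h, 0.37, 0.07 and 0.17 at 8 h, and 0.24, 0.22 and 0.33 at 12 h. At 2 h replicates 1 and 2 overlapped the lowest dark library, and no other light library did. Its log2 fold change was -3.94 ± 0.56 at 1 h (edgeR adjusted p = 0.00014) and -5.51 ± 0.64 at 12 h (edgeR adjusted p = 4.6e-06).

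SAUR22 (AT5G18050, chr5:5974341-5975087, minus strand) had 12.1, 16.9 and 6.4 FPKM in the dark, 0.31, 0 and 0.25 at 1 h, and 3.64, 2.32 and 0.97 at 2 h. It had 0, 0.37 and 0.31 FPKM at 4 h, 0.12, 0 and 0 at 8 h, and 0, 0.06 and 0 at 12 h. The light libraries never reached the dark ones, and the 12 h libraries held 1 count in all against 578 in the dark. That is a ratio of 583 with an exact counting interval of 104 to 23069.95, which covers counting error only. The fitted log2 fold change was -5.94 ± 0.83 at 1 h (edgeR adjusted p = 0.00013) and the call held at 12 h (edgeR adjusted p = 8.9e-06).

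SAUR23 (AT5G18060, chr5:5975780-5976589, plus strand) had 6.35, 9.6 and 3.13 FPKM in the dark. It had 0.26, 0.06 and 0.17 FPKM at 1 h, 2.34, 1.74 and 0.97 at 2 h, 0.07, 0.25 and 0.39 at 4 h, 0.21, 0 and 0.06 at 8 h, and 0.39, 0.26 and 0.22 at 12 h. Again no light library reached the lowest dark one. Its log2 fold change at 1 h was -5.17 ± 0.70 (edgeR adjusted p = 9.8e-05). The other copies followed the same course. SAUR20 (AT5G18020, chr5:5966183-5966785) ranged from 0.19 to 14.8 FPKM and was lower at 1, 4, 8 and 12 h, and SAUR21 (AT5G18030, chr5:5968352-5969190) ranged from 0.05 to 12.1 FPKM and was lower at all 5 times.

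The chromosome 1 array SAUR61 to SAUR68 (chr1:10301377-10323239, 8 genes) showed the same course at a lower level. SAUR63 and its relatives promote elongation of hypocotyls and stamen filaments. The array summed to 28.9, 29.6 and 13.7 FPKM in the dark, 2.32, 1.49 and 1.64 at 1 h, 11.1, 8.42 and 7.07 at 2 h, 5.25, 5.43 and 3.59 at 4 h, 2.25, 2.73 and 2.88 at 8 h, and 2.96, 3.58 and 2.56 at 12 h. Dark libraries were all above every light library. All 6 tested genes were lower at 1, 4, 8 and 12 h, 3 of them also at 2 h, and 5 were higher at 2 h than at 1 h.

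Among the single genes of that array, SAUR66 (AT1G29500, chr1:10321011-10321978) ranged from 0.42 to 7.27 FPKM, SAUR64 (AT1G29450, chr1:10305553-10306595) from 0.22 to 4.98 and SAUR65 (AT1G29460, chr1:10307352-10308246) from 0 to 4.09, and these 3 were lower at all 5 times. SAUR62 (AT1G29430, chr1:10302585-10303418) ranged from 0.16 to 3.65 FPKM, SAUR63 (AT1G29440, chr1:10304507-10305108) from 0.23 to 4.28 and SAUR68 (AT1G29510, chr1:10322423-10323239) from 0.08 to 4.58, and these were lower at each time but 2 h. The last 3 had mostly fractional counts. RefSeq gives the name SAUR68 to AT1G29490 of this array as well, and AT1G29510 also has the name SAUR67. SAUR68 stands for AT1G29510 here, while AT1G29490 had a mean of 0.192 FPKM and was not tested. The call of SAUR63 at 12 h was lost under 4 of 24 other settings.

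The chromosome 3 array of SAUR26 to SAUR29 (chr3:976715-983768, 5 genes) stood nearest its dark level at 2 h among these 3 arrays. Genes of this subfamily promote growth at warm temperature. The array summed to 14.35, 12 and 5.42 FPKM in the dark, 1.19, 0.38 and 0.4 at 1 h, 12.2, 7.84 and 4.13 at 2 h, 1.49, 1.68 and 1.59 at 4 h, 0.84, 0.36 and 0.54 at 8 h, and 0.7, 0.61 and 0.62 at 12 h. The 2 h libraries overlapped the dark ones, and the libraries of every other time lay below both. All 4 tested genes were lower at 1, 4, 8 and 12 h, none at 2 h, and all 4 were higher at 2 h than at 1 h.

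SAUR28 (AT3G03830, chr3:979976-980562, minus strand) had 3.39, 2.69 and 1.5 FPKM in the dark, 0.24, 0.08 and 0.08 at 1 h, and 2.97, 1.89 and 0.94 at 2 h. It then had 0.24, 0.31 and 0.16 FPKM at 4 h, 0.16, 0.24 and 0.27 at 8 h, and 0.08, 0 and 0 at 12 h. The 2 h libraries overlapped the dark ones and no other light library did. At 12 h its libraries held 1 count in all against 96 in the dark, a ratio of 96.8 with an exact counting interval of 17 to 3864.49 (edgeR adjusted p = 1.2e-05). SAUR26 (AT3G03850, chr3:983057-983768) ranged from 0 to 4.18 FPKM, SAUR27 (AT3G03840, chr3:981072-981801) from 0 to 4.14 and SAUR29 (AT3G03820, chr3:976715-977474) from 0.06 to 2.74. All were lower at 1, 4, 8 and 12 h.

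**Figure D3:**
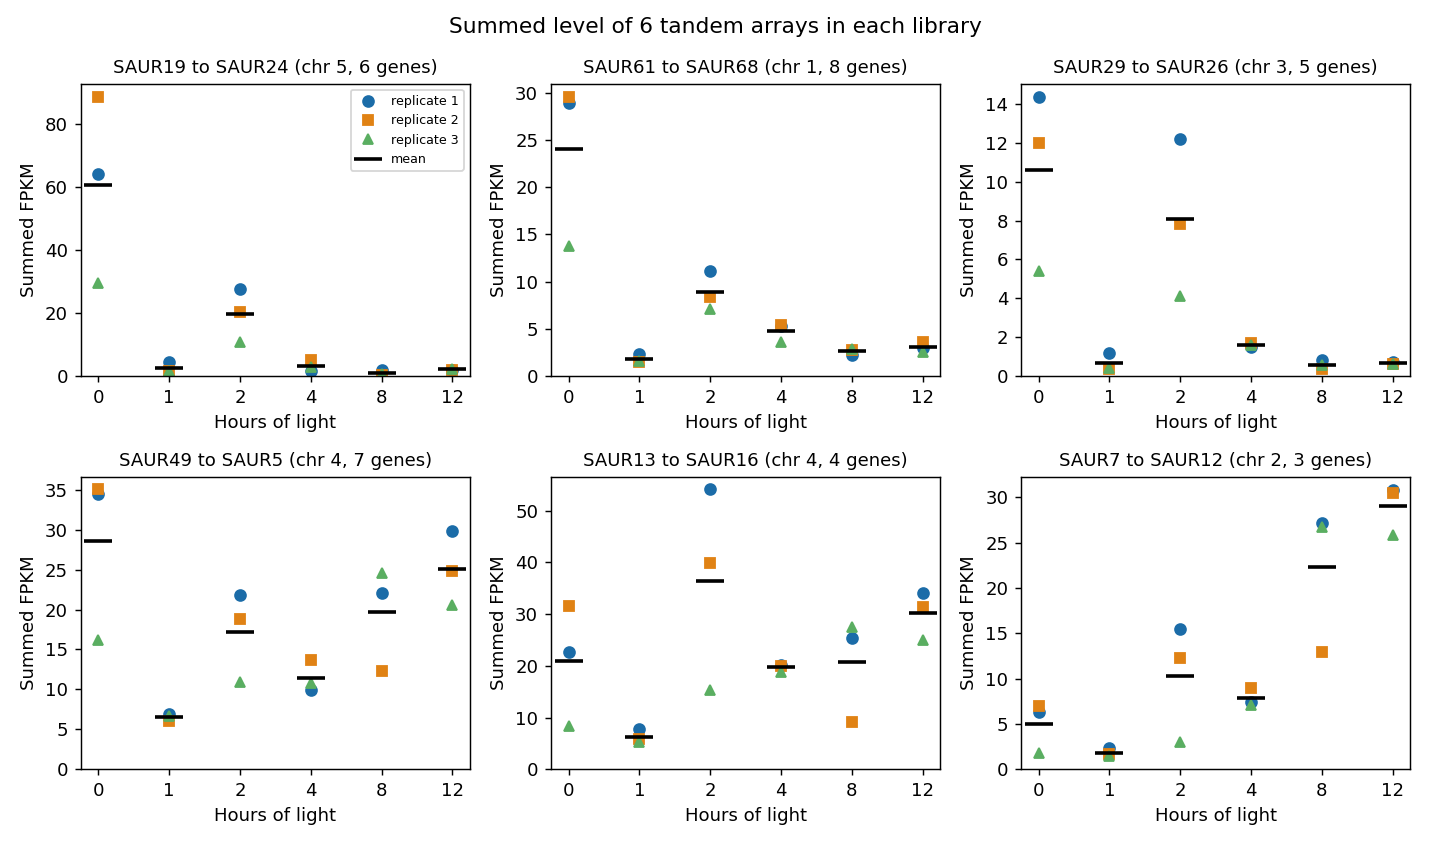
Summed FPKM of 6 tandem arrays in each library by hours of light, with symbols for the replicates and a bar at the mean. The 3 arrays of the upper row fall at 1 h, stand higher at 2 h and stay low from 4 h on, while those of the lower row are back near or above their dark level at 12 h.

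Other arrays held members that went different ways. The chromosome 4 array SAUR13 to SAUR16 (chr4:18121526-18131284, 4 genes) summed to 22.7, 31.5 and 8.36 FPKM in the dark and 34, 31.4 and 24.9 at 12 h, ranges that overlap. Its SAUR13, SAUR15 and SAUR16 were lower at 1 h and SAUR14 was higher from 2 h on. SAUR14, SAUR16 and SAUR50 are known as genes whose response to light differs between cotyledons and hypocotyl, which whole seedlings average.

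SAUR14 (AT4G38840, chr4:18124978-18125559, minus strand) had 4.54, 4.72 and 4.05 FPKM in the dark and 6.15, 4.24 and 3.84 at 1 h. It had 46.2, 33.9 and 11.5 FPKM at 2 h, 17.9, 17.05 and 16 at 4 h, 20.2, 7.6 and 22.5 at 8 h, and 26.4, 24.25 and 19.8 at 12 h. The dark and 1 h libraries overlapped, and every later library was above both, with replicate 3 lowest at 2 h and replicate 2 lowest at 8 h. The log2 fold change was 2.70 ± 0.44 at 2 h (edgeR adjusted p = 0.00017) and 2.44 ± 0.44 at 12 h (edgeR adjusted p = 0.00033).

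SAUR15 (AT4G38850), the classic auxin-induced SAUR-AC1, lies head to head with SAUR14 with 497 bases between the 2 gene starts. It had 1.12, 1.42 and 0.71 FPKM in the dark and 0.3, 0 and 0.12 at 1 h, with a mean under 0.5 FPKM over all libraries. It was lower at all 5 times, with a log2 fold change of -2.89 at 1 h (edgeR adjusted p = 0.0077) and -1.58 at 12 h (edgeR adjusted p = 0.033). SAUR15, SAUR50 and SAUR16 were singled out after their values were seen.

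SAUR13 (AT4G38825, chr4:18121526-18122010, plus strand) had 3.34, 9.23 and 1.67 FPKM in the dark, 0 in all 3 libraries at 1 h, and 2.48, 0.83 and 0.83 at 2 h. It had 0, 0 and 0.29 FPKM at 4 h, 0 in all libraries at 8 h, and 0, 0.19 and 0 at 12 h. Of the light libraries, 2 h replicate 1 alone was above the lowest dark one. With a floor of 3 counts per library, the level at 1 h was at least 16.2-fold lower than in the dark (edgeR adjusted p = 0.0032). At 12 h there were 2 counts against 146, a ratio of 73.6 with an exact counting interval of 20 to 614 (edgeR adjusted p = 0.0016). Its locus overlaps AT4G38820 on the opposite strand and its counts were mostly fractional, so the gene is uncertain.

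SAUR16 (AT4G38860, chr4:18130237-18131284) had 13.7, 16.1 and 1.93 FPKM in the dark and 1.33, 1.55 and 1.34 at 1 h. Dark replicate 3 was close to the 1 h libraries. It was lower at 1, 2, 4 and 8 h, with a log2 fold change of -2.91 ± 0.61 at 1 h (edgeR adjusted p = 0.0045) that missed the threshold with only the compared groups in the fit (edgeR adjusted p = 0.068). At 12 h it had 7.13, 6.54 and 4.95 FPKM, within the range of the dark.

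The chromosome 4 array SAUR49 to SAUR5 (chr4:16577180-16599568, 7 genes) summed to 34.5, 35.2 and 16.2 FPKM in the dark, 6.98, 6.03 and 6.7 at 1 h, and 29.9, 24.9 and 20.5 at 12 h. The 1 h libraries lay below all dark libraries and the 12 h libraries within their range. SAUR50 (AT4G34760, chr4:16582183-16583075) carried most of this sum, with 22.4, 24.45 and 8.8 FPKM in the dark, 2.9, 2.65 and 3.21 at 1 h and 18.3, 18.2 and 15.05 at 12 h. It was lower at 1 h, with a log2 fold change of -2.66 ± 0.45 (edgeR adjusted p = 0.00078), and at 4 h, and its log2 fold change at 12 h was -0.10 ± 0.41.

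SAUR3 (AT4G34790, chr4:16594362-16595153, plus strand) had 0.58, 0.64 and 1.26 FPKM in the dark and 0 in all 3 libraries at 1 h. It had 0.23, 0.11 and 1.6 FPKM at 2 h, 0.17, 0.57 and 0.06 at 4 h, 1.31, 0.74 and 2.32 at 8 h, and 3.43, 0.68 and 0.4 at 12 h. The 1 h and 4 h libraries were all below the dark ones, the latter narrowly, and the libraries of the other times overlapped them. With the same floor, the 1 h level was at least 4.76-fold lower (edgeR adjusted p = 0.037), and the call was lost under 8 of 23 other settings, with adjusted p up to 0.10. SAUR1 (AT4G34770, chr4:16591179-16591910) ranged from 0.06 to 4.69 FPKM and was lower at 4, 8 and 12 h. SAUR49 (AT4G34750, chr4:16577180-16578452), between 2.21 and 6.97 FPKM, was never called.

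Outside the arrays, 6 members were lower at some time. SAUR9 (AT4G36110, chr4:17089934-17090873), whose protein inhibits PP2C clade D phosphatases, ranged from 0.14 to 2.95 FPKM and was lower at each time but 2 h. SAUR57 (AT3G53250, chr3:19742687-19743583) ranged from 0.05 to 3.04 FPKM and was lower at 1, 8 and 12 h, with 3 counts at 1 h against 70 in the dark. Its 12 h call was lost without dark replicate 3, 12 h replicate 1 or 12 h replicate 2, with edgeR adjusted p up to 0.076. SAUR74 (AT3G12955, chr3:4135406-4136143) ranged from 1.91 to 14.6 FPKM and was lower at 2 and 4 h, where the dark mean rested on 14.6 FPKM in replicate 3 against 2.85 and 2.55. SAUR11 (AT5G66260, chr5:26471224-26471786) ranged from 0.5 to 4.5 FPKM and was lower at 4 h. SAUR40 (AT1G79130, chr1:29771218-29771887) and SAUR71 (AT1G56150, chr1:21017311-21018122), of the expansion-promoting SAUR41 subfamily, ranged from 0.27 to 2.04 and from 0.11 to 1.68 FPKM. SAUR40 was lower at 2 and 4 h and SAUR71 at 8 h. At 12 h, however, SAUR40 had 1.43, 1.69 and 2.04 FPKM, all above its 0.89, 0.96 and 0.82 in the dark. That log2 fold change of 0.99 ± 0.31 (edgeR adjusted p = 0.016) was just under the size needed, and it was called higher under 3 of 24 other settings. SAUR74, SAUR11 and SAUR71 did not pass the F test over the 6 groups (edgeR adjusted p = 0.11, 0.081 and 0.082).

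At 2 h the members that had fallen at 1 h stood nearer their dark level. The shoot epidermis markers and some root markers were also higher at 2 h than in the dark. The part of tissue makeup in the 2 h levels was not tested. All 22 members that were lower at 1 h had a 2 h mean between their 1 h and dark means. They were chosen for low 1 h values, and the step to 2 h starts from the same 1 h libraries. That choice by itself favours higher values at 2 h, so the counts for the 22 are descriptions. Between 1 h and 2 h, 27 of the 52 members were higher and 1 was lower, against 15.7% and 5.66% of all genes (21.4% in either direction), and 20 of the 22 were among those higher. Of the 22, 9 were still called lower than the dark at 2 h, 20 were at 4 h and 19 at 12 h. From 2 h to 4 h, 12 members were lower and 1 higher, against 7.73% and 2.04% of all genes (9.77% in either direction), and 10 of the 12 were among the 22. Of the 27 members higher at 2 h than at 1 h, 23 had their lowest 2 h value in replicate 3, the library that stood apart. Without it 34 of all tested members were called higher, against 29 with it.

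Later steps were small. From 4 h to 8 h, 2 members were higher and 2 lower, against 1.9% and 1.67% of all genes (3.57% in either direction). The 4 were SAUR6 and SAUR40, which were higher, and SAUR52 and SAUR57, which were lower, named here because they are few. From 8 h to 12 h, edgeR called none of the 52 members and none of all genes (0%), with 7 members at an unadjusted p under 0.05, and DESeq2 also called 0 members.

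Of the 9 members that rose, SAUR35 and SAUR34 were higher at all 5 times. SAUR35 (AT4G12410, chr4:7342800-7343731, minus strand) had 1.7, 0.54 and 0.73 FPKM in the dark and 6.42, 5.21 and 4.43 at 1 h. It had 1.78, 1.69 and 6.07 FPKM at 2 h, 3.77, 2.61 and 4.07 at 4 h, 4.67, 2.65 and 3.97 at 8 h, and 4.15, 3.79 and 3.9 at 12 h. All light libraries except 2 h replicate 2 were above all dark libraries. The log2 fold change was 2.48 ± 0.47 at 1 h (edgeR adjusted p = 0.0021) and 2.04 ± 0.47 at 12 h (edgeR adjusted p = 0.0024).

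SAUR34 (AT4G22620, chr4:11907355-11908357, plus strand) had 0.27, 0.18 and 0.27 FPKM in the dark, 1.35, 0.32 and 0.63 at 1 h and 0.71, 0.76 and 0.94 at 2 h. It had 1.79, 2.06 and 1.08 FPKM at 4 h, 1.96, 0.98 and 1.76 at 8 h, and 2.5, 3.33 and 4.24 at 12 h. Every light library was above every dark library. Its log2 fold change was 1.70 ± 0.50 at 1 h (edgeR adjusted p = 0.039), a call lost under 8 of 23 other settings with adjusted p up to 0.27. At 12 h it was 3.84 ± 0.48 (edgeR adjusted p = 1.0e-05), the largest of the 52 members at that time.

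SAUR6 (AT2G21210, chr2:9084628-9086029, minus strand) had 4.73, 5.07 and 1.2 FPKM in the dark, 1.83, 1.46 and 1.08 at 1 h, and 12.7, 9.56 and 2.26 at 2 h. It had 6.54, 7.67 and 6.3 FPKM at 4 h, 25.6, 12.5 and 25.8 at 8 h, and 29.3, 29.9 and 25.3 at 12 h. From 4 h on all libraries were above the dark ones. Against the dark the log2 fold change was -1.33 ± 0.60 at 1 h (edgeR adjusted p = 0.20) and 2.93 ± 0.55 at 12 h (edgeR adjusted p = 0.00042). Its locus overlaps that of SAUR7 on the same strand, so its reads are uncertain.

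SAUR51 (AT1G75580, chr1:28377377-28378310, plus strand) had 0.48, 0.19 and 0.48 FPKM in the dark, 1.16, 0.19 and 0.19 at 1 h, and 1.82, 2.22 and 0.87 at 2 h. It had 0.43, 0.92 and 0.73 FPKM at 4 h, 1.68, 0.14 and 1.9 at 8 h, and 2.94, 2.15 and 1.06 at 12 h. The 2 h and 12 h libraries were all above the dark ones, and those of the other times overlapped them. The log2 fold change at 12 h was 2.43 ± 0.78 (edgeR adjusted p = 0.018), and the call was lost without dark replicate 2 or 12 h replicate 1, with adjusted p up to 0.066. Its neighbour SAUR52 (AT1G75590, chr1:28382813-28383769), which ranged from 0.05 to 1.36 FPKM, was lower at 8 and 12 h, the latter a call lost under 5 of 24 other settings.

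SAUR59 (AT3G60690, chr3:22434864-22436053, plus strand) was the only one of the 5 members of highest mean level that was called against the dark. It had 25.4, 26.4 and 31.5 FPKM in the dark, 37.3, 37.3 and 29.4 at 1 h, and 20.9, 26.7 and 35.7 at 2 h. It had 50.2, 35 and 46.6 FPKM at 4 h, 39.8, 46.6 and 41.65 at 8 h, and 58.1, 60.4 and 64 at 12 h. From 4 h on all libraries were above the dark ones. At 12 h the log2 fold change was 1.19 ± 0.17 (edgeR adjusted p = 5.0e-05).

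The remaining 3 members that rose were called at some of the times only. SAUR60 (AT1G20470, chr1:7094260-7094869) ranged from 0.76 to 4.19 FPKM and was higher at 4, 8 and 12 h, and its locus overlaps AT1G20480 on the opposite strand. SAUR46 (AT2G37030, chr2:15553651-15554332) ranged from 0.27 to 12.3 FPKM and was higher at 4 and 8 h, with 11.2 and 12.3 FPKM in 4 h replicates 1 and 2 and 2.49 in replicate 3. SAUR12 (AT2G21220, chr2:9089226-9090052) ranged from 0.11 to 2.14 FPKM and was higher at 2 h.

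**Figure D4:**
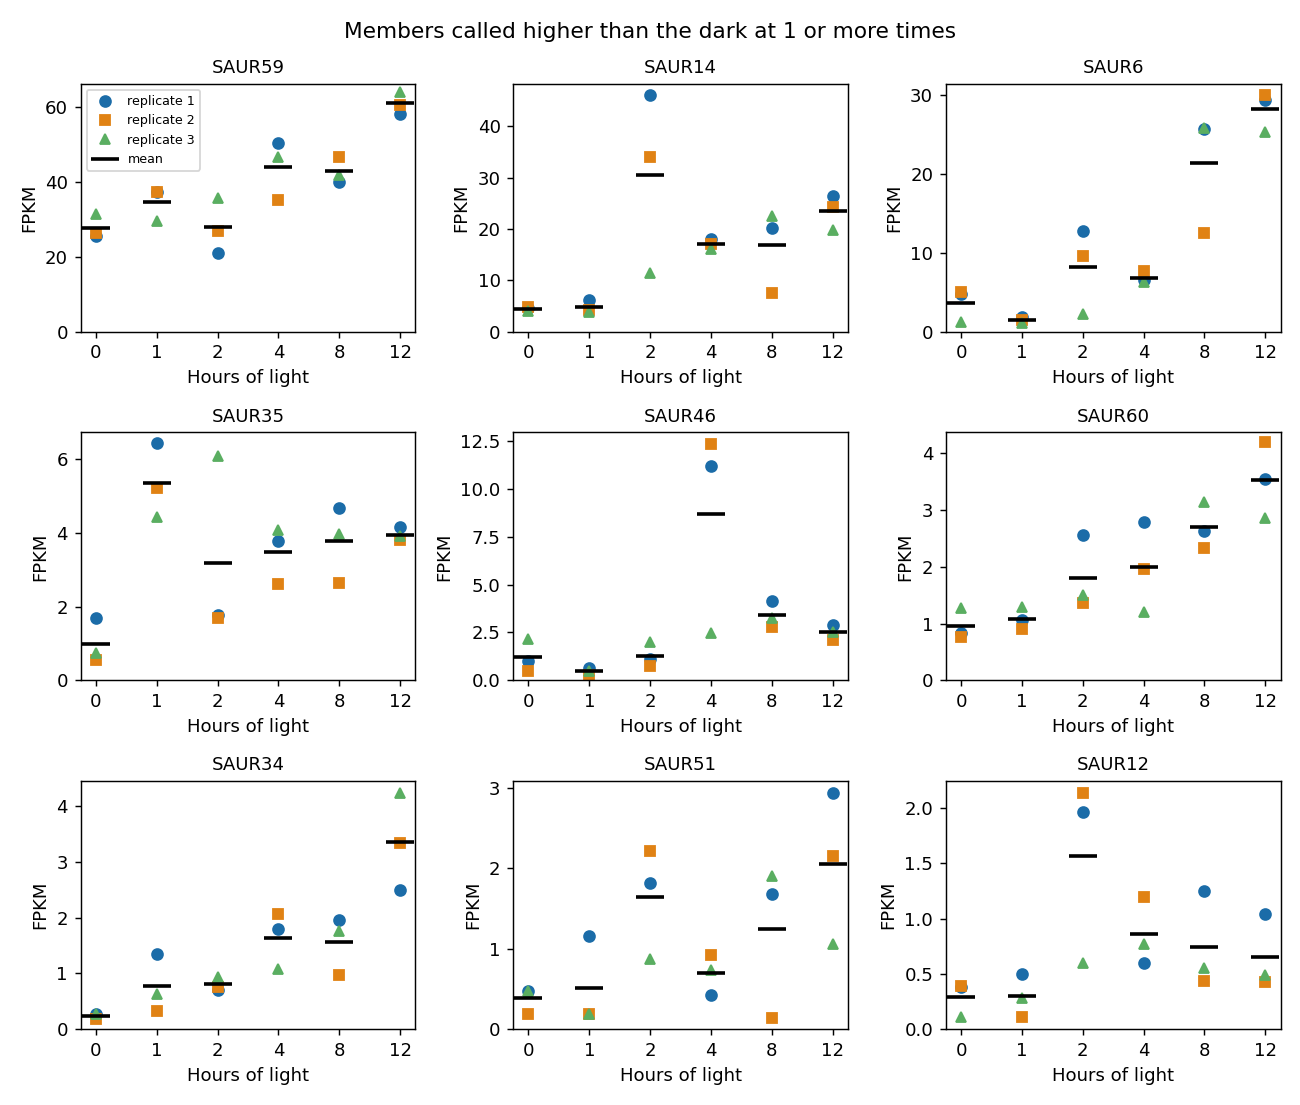
FPKM in each library of the 9 members called higher than the dark at 1 or more times, by hours of light, with symbols for the replicates and a bar at the mean. SAUR59, SAUR6, SAUR60, SAUR34 and SAUR51 have their highest mean at 12 h, SAUR14 and SAUR12 at 2 h, SAUR46 at 4 h and SAUR35 at 1 h.

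A few members held much of the family's summed level. The 5 of highest mean level, SAUR32, SAUR78, SAUR36, SAUR59 and SAUR30, of which SAUR59 alone was called against the dark, made up 52.1% ± 5.95 of the family's summed level in darkness (SD, n = 3), 71% ± 0.75 at 1 h and 60.9% ± 2.81 at 12 h. The median coding length was 316.5 bp in the 28 lower members, 441 bp in the 9 higher and 429 bp in the 15 never called. Arrays held 22 of the 28 lower members, 4 of the 9 higher and 2 of the 15 never called.

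SAUR32 (AT2G46690, chr2:19180705-19181600, plus strand), known from the maintenance of the apical hook, had 109, 108 and 89.2 FPKM in the dark and 136, 147 and 133 at 1 h. It had 59.8, 92.5 and 150 FPKM at 2 h, 147, 123 and 157 at 4 h, 124, 146 and 116 at 8 h, and 100, 106 and 117 at 12 h. The 1 h, 4 h and 8 h libraries were above the dark ones, and the 2 h replicates spread widest. The log2 fold change at 1 h was 0.48 ± 0.23 (edgeR adjusted p = 0.23).

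SAUR78 (AT1G72430, chr1:27264602-27265806, minus strand), whose protein binds ethylene receptors, had 54.2, 41.7 and 57.2 FPKM in the dark and 36.8, 30.2 and 43.1 at 1 h. It had 86.5, 103 and 77.5 FPKM at 2 h, 67.3, 77.5 and 60.2 at 4 h, 35.5, 56.2 and 46.1 at 8 h, and 51.8, 37.6 and 49 at 12 h. Only the 2 h and 4 h libraries lay above all dark ones. It rose from 1 h to 2 h by 1.15 ± 0.18 on the log2 scale (edgeR adjusted p = 0.00018). SAUR77 (AT1G17345, chr1:5940292-5941525), of the same group, ranged from 2.48 to 9.66 FPKM and was the member that was lower at 2 h than at 1 h, with a log2 fold change of -1.02 ± 0.28 (edgeR adjusted p = 0.0084). No member was lower in that step with scaling by library size, with only the compared groups in the fit, or without 1 h replicate 3, 2 h replicate 1 or 2 h replicate 2.

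SAUR36 (AT2G45210, chr2:18641563-18642739, plus strand), known from leaf senescence, had 51.5, 67.1 and 52.5 FPKM in the dark and 43.3, 43.7 and 39.8 at 1 h. It had 23.6, 28.5 and 41.3 FPKM at 2 h, 46.7, 44.2 and 46.5 at 4 h, 33.3, 38.7 and 27.6 at 8 h, and 36.3, 36.9 and 41 at 12 h. Every light library was below every dark library, yet the log2 fold change stayed under 1 in size, at -0.98 ± 0.19 at 2 h (edgeR adjusted p = 0.00062).

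SAUR30 (AT5G53590, chr5:21771811-21772794, plus strand) had 35.1, 30.2 and 27.8 FPKM in the dark, 39.9, 37.3 and 43.1 at 1 h, and 35.1, 46.1 and 43.8 at 2 h. It had 32.1, 30.05 and 40.1 FPKM at 4 h, 22.1, 22.9 and 20.7 at 8 h, and 24.3, 21 and 24.1 at 12 h. The 8 h and 12 h libraries were all below the dark ones. At 8 h the log2 fold change was -0.45 ± 0.14 (edgeR adjusted p = 0.013), under the size needed for a call.

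The other members that were never called against the dark spanned a wide range of levels. SAUR33 (AT3G61900, chr3:22925742-22926379) lay between 13.1 and 36.8 FPKM, SAUR55 (AT5G50760, chr5:20644525-20645698) between 9.07 and 27, and SAUR72 (AT3G12830, chr3:4078651-4079627) between 8.21 and 22.9. AT5G01830 (chr5:320349-323213), the ARM repeat gene, lay between 6.21 and 22.8 FPKM. SAUR41 (AT1G16510, chr1:5644572-5645443), which promotes cell expansion as SAUR72 does, lay between 1.1 and 4.56 FPKM. SAUR31 (AT4G00880, chr4:366373-367274) lay between 0.45 and 3.52, SAUR8 (AT2G16580, chr2:7184422-7187009) between 0 and 1.8, SAUR70 (AT5G20810, chr5:7043758-7045830) between 0.32 and 0.95 and SAUR37 (AT4G31320, chr4:15193709-15194665) between 0 and 2.34 FPKM. SAUR31 and SAUR8 each overlap another locus and had mostly fractional counts. SAUR37 was higher at 2 h than at 1 h, with 107 counts against 1 (edgeR adjusted p = 0.0028).

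The 26 members with a mean under 0.5 FPKM reached at most 3.03 FPKM in any library, and 18 of them stayed under 1 FPKM throughout. Of these, 17 had too few counts to be tested. Of the 9 tested, 5 were lower at 1 or more times, none was higher and 4 were never called. The share of all tested genes lower at 1 or more times was not counted, and it is at least the 9.19% at 12 h. The 5 were SAUR10, SAUR15, SAUR7, SAUR25 and SAUR17. SAUR17, a gene known for its expression in the dark and in the apical hook, had 1.52, 2.09 and 0 FPKM in the dark and 0 in all 3 libraries at 12 h, so dark replicate 3 already lacked it.

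The partners of SAUR proteins and the auxin pathway above them were read from a list of 43 genes, of which 37 were tested. At 1 h, 5 of them were lower and none higher, where 2.09% and 3.66% of all genes were. At 12 h, 7 were lower and 1 higher, where 9.19% and 13.1% of all genes were. Among the 9 clade D PP2C phosphatases, the targets of SAUR proteins, 1 was lower at 1 h and 3 at 12 h. AT5G02760 had 11.3, 6.68 and 23.5 FPKM in the dark, 3.74, 2.87 and 5.49 at 1 h, and 1.92, 1.89 and 1.55 at 12 h. All of its 1 h and 12 h libraries were below the dark ones, with log2 fold changes of -1.70 ± 0.48 (edgeR adjusted p = 0.031) and -2.87 ± 0.51 (edgeR adjusted p = 0.00029). None of the 10 tested plasma membrane proton pumps was called at 1 h or 12 h. At 4 h and at 8 h, 2 of them were lower, where 7.51% and 9% of all genes were.

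Of the 12 auxin synthesis genes listed (TAA1 and the YUC genes), 7 were tested. Of these, 3 were lower at 1 h, none at 2 h and 3 at 12 h, and 4 were higher at 2 h than at 1 h. Of all tested genes, 2.09%, 6.46% and 9.19% were lower at 1, 2 and 12 h, and 15.7% were higher at 2 h than at 1 h. YUC3, which makes auxin from indole-3-pyruvate, had 0.9, 1.05 and 0.72 FPKM in the dark, 0.05, 0.03 and 0.03 at 1 h, 0.79, 0.77 and 0.7 at 2 h, and 0.25, 0.07 and 0.02 at 12 h. Its log2 fold change was -4.59 ± 0.82 at 1 h (edgeR adjusted p = 0.0012) and -2.90 ± 0.68 at 12 h (edgeR adjusted p = 0.0027). TAA1, the aminotransferase of the step before, had 3.13, 4.33 and 3.41 FPKM in the dark and 1.1, 0.61 and 0.58 at 1 h, with a log2 fold change of -2.22 ± 0.48 (edgeR adjusted p = 0.0051). The 1 h libraries of both genes lay below all dark ones.

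Of the 6 auxin receptors, the AFB1 gene (GRH1 in the tables) was the one called at 12 h. It had 19.8, 20.3 and 15.3 FPKM in the dark and was already below that at 1 h, with 7.77, 5.46 and 6.48. It had 18, 14.8 and 9.01 FPKM at 2 h and 5.62, 3.45 and 3.31 at 12 h. Its log2 fold change at 12 h was -2.14 ± 0.28 (edgeR adjusted p = 1.6e-05). Of the 5 activating auxin response factors, ARF8 was the one called at 12 h. It had 11.1, 10.4 and 9.2 FPKM in the dark, 44.9, 41.1 and 28.9 at 2 h, and 21.4, 21.1 and 17.2 at 12 h. Its level was thus highest at 2 h, and its log2 fold change at 12 h was 1.03 ± 0.16 (edgeR adjusted p = 9.7e-05). The dark and 12 h libraries did not overlap for either gene.

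The 250 bases before each gene start were read from RefSeq TAIR10.1 and searched on both strands for motifs tied to light, auxin and growth. The PBE-box CACATG, a site bound by PIF factors, was in the promoters of 18 of the 28 lower members (64.3%), 3 of the 9 higher (33.3%) and 1 of the 15 never called (6.7%). It was in 31 of all 78 members (39.7%) and in 11.1% of 27443 protein-coding promoters. All 8 genes of the SAUR61 to SAUR68 array and all 5 of the SAUR26 to SAUR29 array held it, and 3 of the 6 of the SAUR19 to SAUR24 array. Copies within these arrays resemble each other, so their matches are not independent.

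The auxin response element TGTCTC was in 17.9% of the lower members, in none of the higher or never called ones and in 10.9% of all promoters. The G-box CACGTG was in none of the lower members, in 11.1% of the higher (SAUR59 alone) and in 6.5% of all. The variant TGTCGG was in 2 of the 28 lower members and 4.2% of all promoters. CGTGTG and CGTGCG, bound by BZR1, were in 3 and 2 of the 52 members and in 5.4% and 1.6% of all promoters. The TATA box letters TATAAA were in 46.4% of the lower, 44.4% of the higher and 73.3% of the never called members and in 47.3% of all. A match is a description of letters and not a site.

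**Figure D5:**
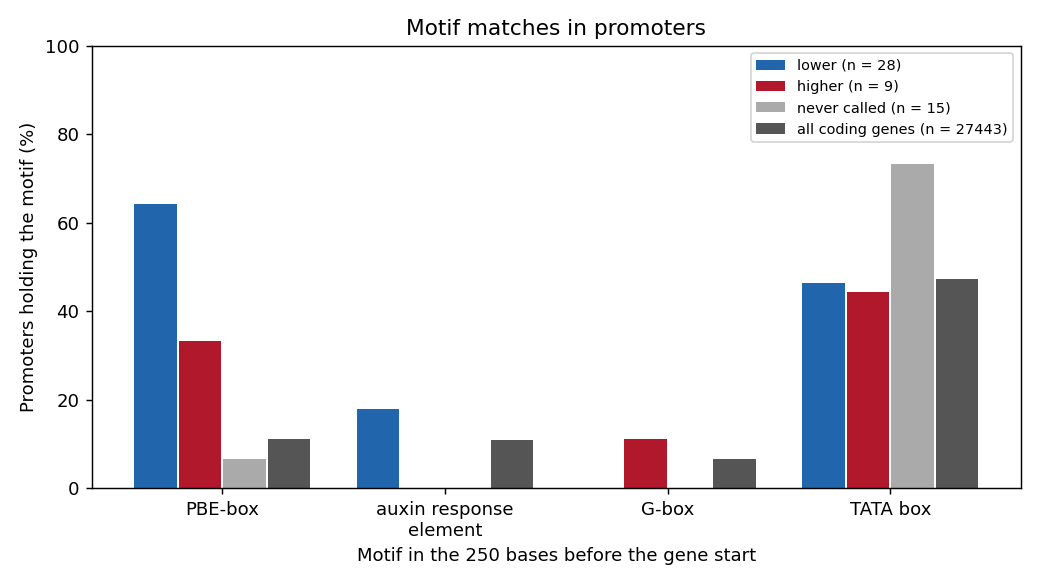
Share of promoters (percent, 250 bases before the gene start) holding each of 4 motifs on either strand, for the lower, higher and never called members and for all protein-coding genes. The PBE-box bar of the lower members stands at 64.3% and that of all genes at 11.1%.

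Promoters are printed for members on both sides of the change, as 250 bases 5′ to 3′ toward the gene on TAIR10.1, with capitals for matches to the motifs searched on either strand other than TATAAA. SAUR22 (chr5:5975088-5975337, minus strand), SAUR26 (chr3:982807-983056, plus strand) and SAUR64 (chr1:10306596-10306845, minus strand) are each from 1 of the 3 arrays that fell. SAUR22 holds a TGTCTC match before its PBE-box, SAUR26 holds 2 PBE-boxes and SAUR64 holds 1. SAUR20, SAUR23 and SAUR24, of the same array as SAUR22, fell as well and hold no PBE-box.
SAUR22: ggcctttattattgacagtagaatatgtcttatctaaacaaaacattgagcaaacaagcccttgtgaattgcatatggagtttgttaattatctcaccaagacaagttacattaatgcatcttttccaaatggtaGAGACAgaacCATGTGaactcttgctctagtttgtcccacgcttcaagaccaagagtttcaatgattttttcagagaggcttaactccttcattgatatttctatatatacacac
SAUR26: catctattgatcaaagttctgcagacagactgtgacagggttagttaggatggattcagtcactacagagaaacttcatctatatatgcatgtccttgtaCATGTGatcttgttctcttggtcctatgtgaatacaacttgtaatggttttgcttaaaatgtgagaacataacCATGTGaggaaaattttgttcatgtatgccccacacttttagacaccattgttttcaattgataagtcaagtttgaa
SAUR64: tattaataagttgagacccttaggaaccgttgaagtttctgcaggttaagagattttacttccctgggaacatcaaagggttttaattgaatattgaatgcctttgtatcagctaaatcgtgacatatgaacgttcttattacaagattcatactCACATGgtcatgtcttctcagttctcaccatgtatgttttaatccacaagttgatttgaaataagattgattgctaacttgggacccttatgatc

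The head-to-head neighbours SAUR15 (chr4:18125807-18126056, plus strand), which fell, and SAUR14 (chr4:18125560-18125809, minus strand), which rose, cover the bases between the 2 gene starts from either end. SAUR14 holds 1 PBE-box, and SAUR15 holds 2 and a TGTCTC match.
SAUR15: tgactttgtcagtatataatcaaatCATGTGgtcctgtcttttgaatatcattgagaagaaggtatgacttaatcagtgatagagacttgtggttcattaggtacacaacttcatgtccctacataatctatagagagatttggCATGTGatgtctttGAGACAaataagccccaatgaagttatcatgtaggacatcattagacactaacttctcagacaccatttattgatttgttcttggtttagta
SAUR14: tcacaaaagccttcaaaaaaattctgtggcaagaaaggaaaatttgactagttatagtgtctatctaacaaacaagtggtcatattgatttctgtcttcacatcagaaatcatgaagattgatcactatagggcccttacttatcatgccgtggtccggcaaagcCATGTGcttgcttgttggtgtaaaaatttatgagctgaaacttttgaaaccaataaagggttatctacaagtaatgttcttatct

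SAUR59 (chr3:22434614-22434863, plus strand) and SAUR34 (chr4:11907105-11907354, plus strand) stand for members that rose without a PBE-box. SAUR59 holds 2 G-boxes and 3 matches to CGTGTG, some of which overlap a G-box, and SAUR34 holds none of the 6 motifs marked.
SAUR59: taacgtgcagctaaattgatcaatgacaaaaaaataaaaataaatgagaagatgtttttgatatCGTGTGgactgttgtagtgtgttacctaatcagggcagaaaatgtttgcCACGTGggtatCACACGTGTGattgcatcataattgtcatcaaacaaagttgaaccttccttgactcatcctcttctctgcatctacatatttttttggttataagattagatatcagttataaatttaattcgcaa
SAUR34: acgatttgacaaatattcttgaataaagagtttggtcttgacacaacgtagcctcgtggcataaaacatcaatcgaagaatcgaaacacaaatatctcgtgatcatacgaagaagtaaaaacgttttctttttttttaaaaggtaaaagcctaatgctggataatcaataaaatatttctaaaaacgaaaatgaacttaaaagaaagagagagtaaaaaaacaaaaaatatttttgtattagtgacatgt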

How the data were processed

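Gene levels were measured by RNA-seq of polyA RNA in 18 libraries. The deposited gene tables hold expected counts and FPKM as the authors made them. Per the submitters' processing notes the tools were RSEM, Bowtie2 and HISAT2. Genome build and strandedness are not given in the sources used here. Loci in the tables equalled RefSeq TAIR10.1 for 100% of 24746 genes compared. Members absent from a table count as 0. Expected counts were rounded to whole numbers, filtered with filterByExpr and scaled by TMM, and 20569 genes were tested with edgeR 4.0.16 (R 4.3.3) in 1 quasi-likelihood fit with a term per group. Standard errors are the log2 fold change divided by the square root of F. Of 24951 genes listed, 61 of the 78 members were tested. Calls required Benjamini-Hochberg adjusted p under 0.05 and an absolute log2 fold change of 1 or more. The procedure was tested on simulated data with the same dispersion for all genes and no library standing apart. That test therefore does not cover libraries such as dark replicate 3. Full values were given for the 5 called members of largest change in each direction at 1 h and at 12 h and the 5 of highest mean level, pathway genes were named for the 3 largest called changes each way at those times, and other genes were chosen after their values were seen. Members and lists were chosen with earlier results of these data known.

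Between 77.8% and 79.4% of listed genes had whole counts (tolerance 0.005), and 10 of the 52 members had mostly fractional ones. Same-numbered libraries at 0 h and 2 h deviated weakly together from their group means (correlations of 0.116, 0.297 and 0.289). In the other comparisons the mean correlation lay between -0.266 and 0.122. The main fit held no replicate block, so no pairing was used in the reported calls. Replicate numbers entered only the replicate block run as an alternative. Alternatives were DESeq2 1.42.0, scaling by library size, no filter, no fold minimum, only the compared groups, a replicate block and leaving out each library. Exact intervals and floors of 3 counts cover counting error only.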

Additional observations from a re-analysis of the deposited data

How the results depend on the processing

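Single members were followed across alternatives at 1 h and 12 h only, and there no called fold change turned sign, while some uncalled ones did. Counts here are over the 61 tested members. With only the compared groups in the fit, 11 members changed at 2 h against the dark (18 with all groups) and 2 from 4 h to 8 h (4 with all groups). As a share of expected counts the members held 0.0499%, 0.0416%, 0.0502%, 0.0475%, 0.0412% and 0.0445% at 0, 1, 2, 4, 8 and 12 h. Leaving out single libraries gave 25 to 31 changed members at 1 h, 12 to 26 at 2 h, 29 to 36 at 4 h, 29 to 36 at 8 h and 29 to 35 at 12 h. It gave 27 to 36 from 1 h to 2 h, 9 to 20 from 2 h to 4 h, 1 to 6 from 4 h to 8 h, 0 to 0 from 8 h to 12 h and 47 to 53 in the test over all times. Dropping dark replicate 2 left 12 changed at 2 h and dropping dark replicate 3 gave 26. From 2 h to 4 h, dropping 2 h replicate 1 or 4 h replicate 1 left 9 and dropping 2 h replicate 3 gave 20. From 4 h to 8 h, 1 was left without 4 h replicate 2, and 2 without 4 h replicate 1, 8 h replicate 1 or 8 h replicate 3. With the replicate block, 26, 16, 33, 33 and 32 members changed at 1, 2, 4, 8 and 12 h, 31, 12, 5 and 0 from 1 h to 2 h and in the later steps, and 50 in the test over all times, and none of these counts moved by over 1.5 times. At 1 h and at 12 h, 43 of the 52 members kept their call under all alternatives run for single members. Dropping the fold minimum was not among these. By edgeR adjusted p under 0.05 alone, 25 of the 52 passed at 1 h and 32 at 12 h. With the minimum, 22 were lower and 2 higher at 1 h, and 21 lower and 7 higher at 12 h. The causes of the differences were not tested. The fit on only the compared groups was not run for the test over all times. Depth limits the members under 0.5 FPKM, of which 17 could not be tested.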
